A study of Homo sapiens with 59 samples.

Results

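The 31 genes described here are known transcriptional targets of p53, taken as a list of symbols and read from the deposited table of 60675 genes. This list and the other gene lists below were chosen with earlier results of these data known. Shares of a list set against all genes tested are therefore descriptive and not an independent test. All 31 were found, and all 31 were among the 16641 genes that passed the filter on low counts. HepG2 cells, a line established from a human hepatocellular carcinoma, were harvested for RNA sequencing 24 h after treatment. The study compared hot water extracts of 6 herbal medicines with a vehicle. Fresh ginger (Zingiberis Rhizoma Recens), dried ginger (Zingiberis Rhizoma), Pinelliae Tuber, Scutellariae Radix and Zizyphi Fructus were each given at 500, 100 and 20 ug/mL. Coptidis Rhizoma was given at 210, 42 and 8.4 ug/mL. By the series text an extract whose IC20 lay under 500 ug/mL was used at that IC20 and at dilutions of it, so the top dose of Coptidis Rhizoma was set by its effect on the cells. Wortmannin at 10 uM, an inhibitor of phosphoinositide 3-kinases, was the positive control and DMSO the vehicle. The sample labels give the vehicle as 0.1% DMSO and the series text as 2%, and the labels of the other groups give no DMSO content. Each group held 3 libraries except Pinelliae Tuber 20 ug/mL, which held 2. All 59 libraries carry the same batch label, but a number in the title codes differs between sets of groups: the vehicle and wortmannin libraries have 1, fresh and dried ginger have 2, Scutellariae Radix and Pinelliae Tuber have 3, and Zizyphi Fructus and Coptidis Rhizoma have 4. The labels do not say what it stands for. In every comparison of an extract with vehicle, and of Scutellariae Radix with Coptidis Rhizoma, the number differs with the groups and cannot be told apart from the treatment. Comparisons between doses of an extract, between the gingers and of wortmannin with vehicle lie within 1 number. The labels do not state whether the replicates are separate cultures, and the p-values may therefore reflect technical spread alone.

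p53 is a transcription factor that is held at a low level by the ubiquitin ligase MDM2 and is stabilised by DNA damage, ribosomal stress and other insults. It then activates genes that stop the cell cycle, repair DNA, feed back on p53 itself or promote cell death. Many of these genes have other activators too, among them the integrated stress response and growth factor signalling. RNA levels say nothing direct about the p53 protein, which was not measured here.

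Libraries held 21582593 to 31392071 counts. The hepatocyte markers ALB, AFP, APOA1, APOA2, APOB, TTR, SERPINA1, FGB, HNF4A and TF were all detected and tested. Of 14 markers of fibroblasts, endothelium and leukocytes, 7 passed the filter, and DCN, LUM, KDR, PTPRC and CD3E had a median of 0 CPM, the counts of a gene scaled to a fixed library total. The summed level of these 14 was set by LYZ, at 1010 to 2670 CPM, and CD68, at 25.3 to 86.5 CPM. Replicate pairs were compared by the mean chi-square per gene, and 6 pairs had values of 12.6 to 32.4, all others being at 12.0 or less. These 6 each held 1 of 3 libraries, which are said below to stand apart: in dried ginger 500 ug/mL it was replicate 1, in Pinelliae Tuber 100 ug/mL replicate 3, and in Zizyphi Fructus 20 ug/mL replicate 1. The next were replicate 3 of Coptidis Rhizoma 8.4 ug/mL, at 8.48 and 12.0, and replicate 1 of Scutellariae Radix 20 ug/mL, at 7.67 and 7.13, and the remaining pair of Zizyphi Fructus 20 ug/mL was at 9.46. In bulk RNA, a change in the mix of cell states and a change in RNA per cell cannot be told apart. CPM values were scaled by library but not by gene length, so levels are compared between samples and not between genes.

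The promoters of the list were searched for the p53 consensus site, since it is the feature the name of the list refers to. The site was taken as 2 adjoining half-sites of 10 bases with no spacer, with both cores intact and at most 3 mismatches elsewhere, and it reads the same on both strands. RefSeq windows (GRCh38.p14) from 250 bases before to 50 bases after each transcript start were available for 24 of the 31 genes, and not for GADD45A, TNFRSF10A, TNFRSF10B, TP53INP1, PHLDA3, RRM2B and CMBL. Such a site lay in 4 of 35 windows of the list (11.4%) and in 150 of all 35116 windows (0.427%). The 4 are shown 5′ to 3′ on the strand of the gene with the 20 bases of the site in capitals. SESN1 is shown with 150 bases, and the others with 5 bases on each side because exons lie in the stretch.
SESN1: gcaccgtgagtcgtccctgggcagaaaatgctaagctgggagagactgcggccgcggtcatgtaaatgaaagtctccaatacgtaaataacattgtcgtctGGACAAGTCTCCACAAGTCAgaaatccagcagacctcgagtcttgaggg
FAS: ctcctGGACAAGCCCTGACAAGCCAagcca
RPS27L: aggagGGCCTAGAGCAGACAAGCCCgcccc
AEN: gagccGGGCTTGCCCGGGCATGTGGgagct
The SESN1 stretch is chr6:109008989-109009138 on the minus strand, in an intron by GENCODE 29, and its site has 3 mismatches. The FAS stretch is chr10:88991304-88991333 on the plus strand, with 2 mismatches. The RPS27L stretch is chr15:63157522-63157551 on the minus strand, with 3 mismatches, and that of AEN is chr15:88621301-88621330 on the plus strand, with 2. The sites of FAS, RPS27L and AEN each lie in an exon of at least 1 transcript. These 4 genes did not share a pattern in the data below. FAS was called higher than vehicle in 5 of 19 groups and lower in 0, and AEN higher in 4 and lower in 2. SESN1 and RPS27L were called higher in none and lower in 9 and 6. A match describes these letters only, and a gene without one here can carry sites elsewhere, as is known for CDKN1A and MDM2.

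Called means an adjusted p under 0.05 in edgeR's quasi-likelihood test across all 16641 genes. The list was most fully raised by Scutellariae Radix at 500 ug/mL, where 27 of 31 genes rose, against 24.7% of all genes tested. The median log2 change of the list was 0.59. With Coptidis Rhizoma at 210 ug/mL 17 genes rose and 9 fell, with a median of 0.27. Of all genes tested 34.8% rose and 34.5% fell there, so the share of the list that fell was not above that of all genes. Fresh and dried ginger at 500 ug/mL raised 19 and 18 genes, against 23.6% and 21.5% of all genes. Wortmannin lowered 13 and raised 3, against 16.0% and 16.2%. No group of Pinelliae Tuber or Zizyphi Fructus had more than 1 called gene. Over all genes tested the median change was between -0.01 and 0.02 in every group against vehicle. The scaling of libraries takes most genes as unchanged and so holds this median near 0, which makes it no separate result. All 19 of these comparisons share the same 3 vehicle libraries.

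**Figure D1:**
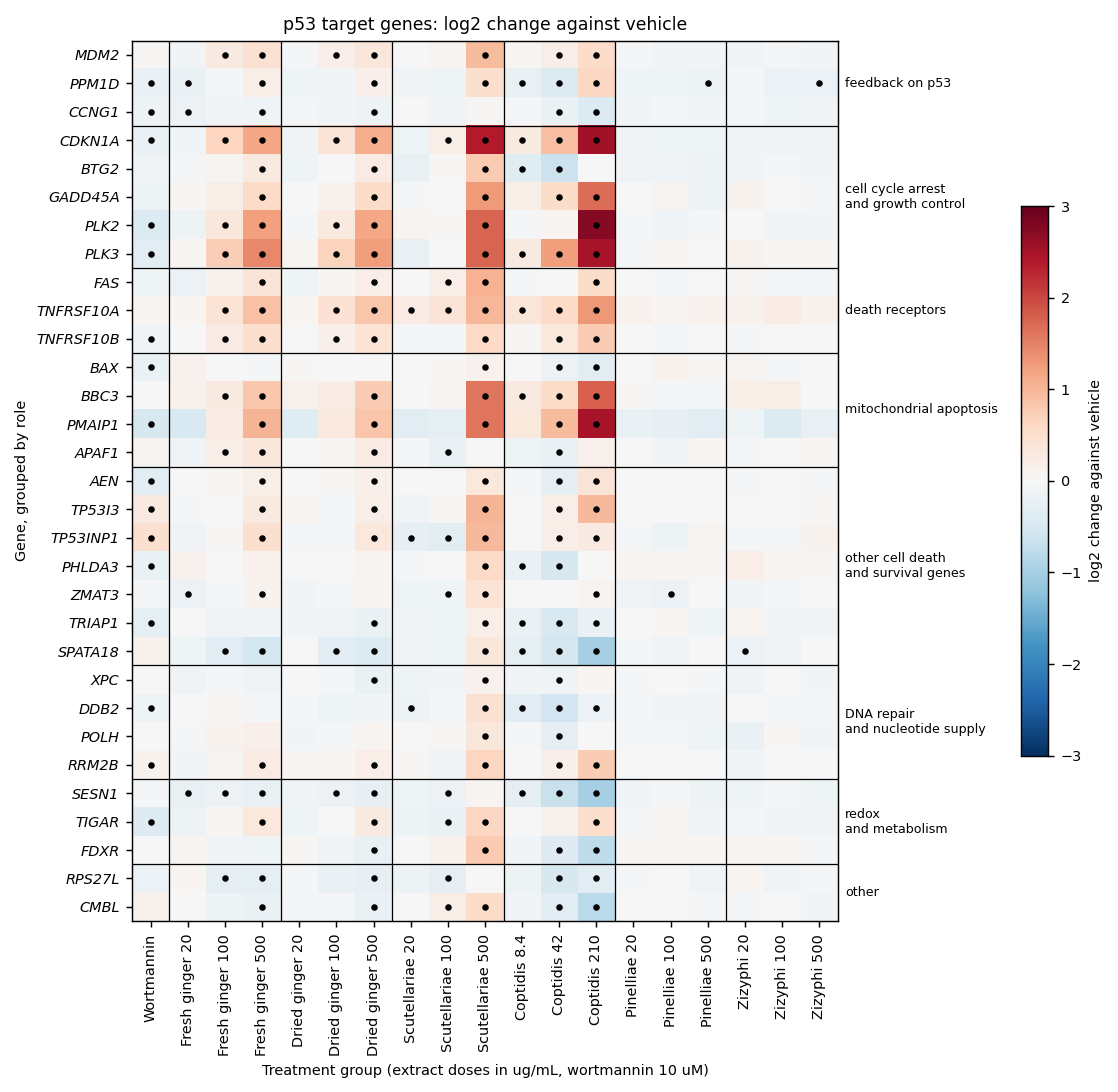
Log2 change against vehicle of the 31 p53 target genes (rows, grouped by role) in 19 treatment groups (columns), with red for higher, blue for lower and a dot for an adjusted p under 0.05. The Scutellariae Radix 500 ug/mL column is red or pale throughout, with 27 dots, and the Coptidis Rhizoma 210 ug/mL column holds both the strongest red, PLK2 at 2.72, and 9 called blue cells.

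Scutellariae Radix is the root of Baikal skullcap. At 500 ug/mL, 27 of the 31 genes were called higher, against 24.7% of all genes tested, and 0 were called lower, against 25.5%. In all, 50.2% of the genes tested were called. At an unadjusted p under 0.05 there were also 0 lower, and DESeq2 likewise gave 27 higher and 0 lower. The 4 genes that were not called were the cyclin CCNG1 at 0.03, the apoptosome scaffold APAF1 at 0.02, the sestrin SESN1 at 0.08 and the ribosomal protein gene RPS27L at 0.01. In each of the 27 the 3 treated libraries lay above all 3 vehicle libraries.

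CDKN1A (ENSG00000124762, chr6:36676460-36687339, plus strand, GRCh38) encodes p21, the cyclin-dependent kinase inhibitor that mediates p53-dependent arrest. It stood at 96.7, 91.1 and 97.9 CPM in vehicle and at 495, 503 and 490 CPM in Scutellariae Radix 500 ug/mL. The groups were far apart, with a fold change of 5.21 (log2 2.38, SE 0.052, adjusted p = 6.55e-38). The Polo-like kinase PLK2 (ENSG00000145632, chr5:58453982-58460260, minus strand) went from 12.6, 13.0 and 12.8 CPM to 43.0, 40.8 and 45.9 CPM, a log2 change of 1.75 (SE 0.067, adjusted p = 1.04e-27). Its relative PLK3 (ENSG00000173846, chr1:44800225-44805990, plus strand) went from 9.44, 9.80 and 9.21 CPM to 32.6, 30.9 and 32.5 CPM, also 1.75 (SE 0.076, adjusted p = 2.13e-25). These kinases act on the cell cycle and on stress signalling. The remaining genes of arrest and growth control, GADD45A and BTG2, rose by 1.28 and 0.79 on the log2 scale, so all 5 genes with this role were called higher.

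MDM2 (ENSG00000135679, chr12:68808176-68850686, plus strand), the ligase that p53 induces against itself, stood at 330, 334 and 332 CPM in vehicle and at 648, 662 and 628 CPM in Scutellariae Radix 500 ug/mL. That is a 1.94-fold rise (log2 0.96, SE 0.036, adjusted p = 7.02e-28), the highest MDM2 level of the 20 groups. The phosphatase PPM1D, also known as WIP1, which dephosphorylates p53 and its kinases, rose by 0.49. The third feedback gene, CCNG1, was not called.

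All 3 death receptor genes rose: FAS by 1.04, TNFRSF10A by 0.99 and TNFRSF10B by 0.59 on the log2 scale. TNFRSF10A and TNFRSF10B encode the TRAIL receptors DR4 and DR5. Of the mitochondrial apoptosis genes, the BH3-only factor BBC3 (PUMA; ENSG00000105327, chr19:47220822-47232766, minus strand) went from 7.02, 7.64 and 7.85 CPM to 23.1, 22.5 and 22.7 CPM, a log2 change of 1.60 (SE 0.086, adjusted p = 1.16e-21). PMAIP1 (NOXA), another BH3-only factor, rose by 1.60 (SE 0.148). BAX, the pore-forming effector, changed little: 98.0, 104 and 106 CPM in vehicle and 111, 112 and 113 CPM with the extract. Its log2 change of 0.13 had an adjusted p of 0.0462, and it was not called in 5 of 12 alternatives, with adjusted p values up to 0.205.

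The 7 other cell death and survival genes rose, from 0.20 for TRIAP1, a mitochondrial lipid transfer protein, to 1.02 for the quinone oxidoreductase TP53I3. Between them lay TP53INP1 at 0.98, PHLDA3, an inhibitor of AKT, at 0.58, the RNA-binding protein ZMAT3 at 0.41, SPATA18 at 0.34 and the nuclease AEN at 0.32. All 4 genes of DNA repair and nucleotide supply rose: RRM2B, a ribonucleotide reductase subunit, by 0.64, DDB2 by 0.46, the translesion polymerase POLH by 0.34 and XPC by 0.14. DDB2 and XPC recognise damage in nucleotide excision repair. In redox and metabolism, ferredoxin reductase FDXR rose by 0.79 and TIGAR, which lowers glycolytic flux, by 0.63, while SESN1 was not called. CMBL, a hydrolase outside these roles, rose by 0.54.

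The lower doses of Scutellariae Radix did not show this pattern. At 100 ug/mL, 4 genes were called higher and 6 lower, against 7.28% and 7.36% of all genes tested (14.6% in all). CDKN1A stood at 113, 108 and 105 CPM (log2 0.19, adjusted p = 0.00665) and MDM2 at 358, 359 and 337 CPM (0.08, adjusted p = 0.128). TNFRSF10A, FAS and CMBL also rose, and TP53INP1, RPS27L, TIGAR, APAF1, SESN1 and ZMAT3 fell. TP53INP1 fell from 31.7, 30.3 and 30.4 CPM in vehicle to 25.2, 26.1 and 23.3 CPM, by 0.31 on the log2 scale, and was called in the opposite direction at 500 ug/mL. The total of 10 calls became 4 without this group's replicate 1, 6 without its replicate 3, 5 without vehicle replicate 1 and 6 without vehicle replicate 3. At 20 ug/mL, 1 gene was called higher and 2 lower, against 2.58% and 2.18% (4.75% in all): TNFRSF10A at 0.24, TP53INP1 at -0.24 and DDB2 at -0.16. CDKN1A was then at 85.2, 86.7 and 89.2 CPM and MDM2 at 338, 335 and 325 CPM, and neither was called. The 3 calls became 1 without replicate 2 or 3 of this group or without vehicle replicate 1 or 3. Within the extract, 28 genes were higher and 0 lower at 500 than at 20 ug/mL, against 24.5% and 25.4% of all genes. Between 500 and 100 ug/mL the counts were 29 and 0, against 24.0% and 24.5%. For both within-extract comparisons an unadjusted p under 0.05 and DESeq2 also gave 0 lower. These comparisons use no vehicle library and lie within 1 title number.

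**Figure D2:**
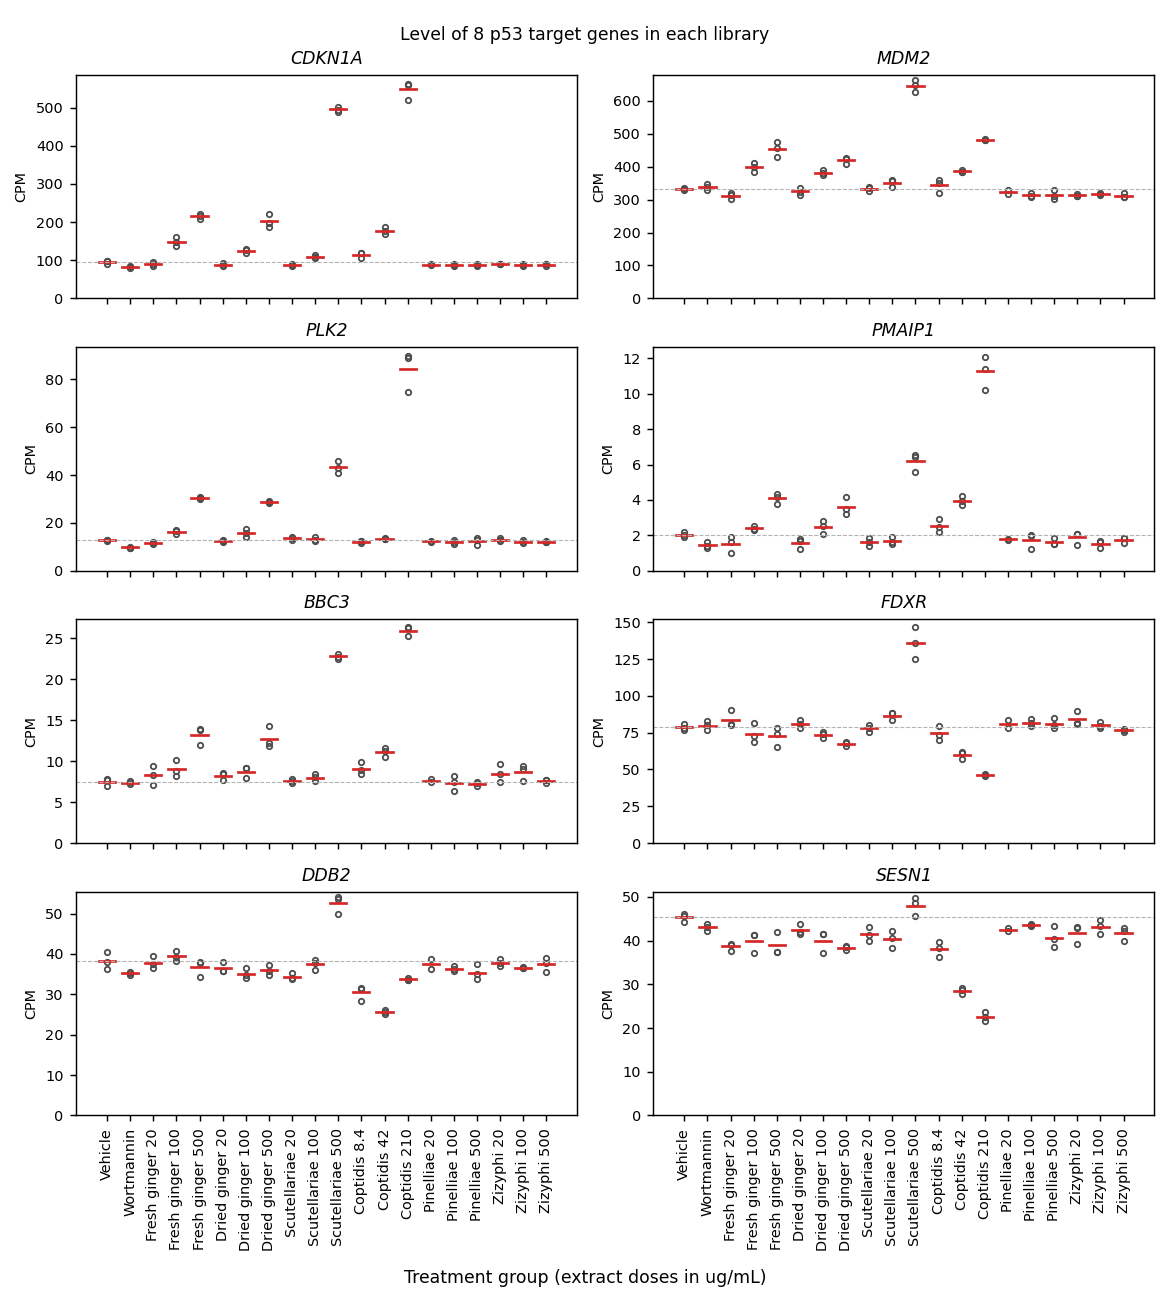
Level in CPM (linear axes from 0) of CDKN1A, MDM2, PLK2, PMAIP1, BBC3, FDXR, DDB2 and SESN1 in each library (open circles) of the 20 groups, with the group mean as a red bar and the vehicle mean as a dashed line. CDKN1A lies between 490 and 563 CPM with Scutellariae Radix 500 ug/mL and Coptidis Rhizoma 210 ug/mL and at 221 CPM or less in the other groups, while FDXR and SESN1 are below the vehicle line at 42 and 210 ug/mL of Coptidis Rhizoma.

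Coptidis Rhizoma is a rhizome rich in berberine. At 210 ug/mL, 17 of the 31 genes were called higher and 9 lower, against 34.8% and 34.5% of all genes tested (69.4% in all). The top movers exceeded those of every other group. PLK2 rose from 12.6, 13.0 and 12.8 CPM to 89.6, 89.0 and 74.6 CPM, a 6.59-fold change (log2 2.72, SE 0.065, adjusted p = 4.06e-37). CDKN1A reached 563, 559 and 521 CPM, a 5.76-fold change (log2 2.52, SE 0.052, adjusted p = 6.77e-40). PLK3 reached 53.1, 54.4 and 49.8 CPM (log2 2.47, SE 0.074, adjusted p = 6.05e-33). Replicate 3 was the lowest of its group for these 3 genes, and still stood far above vehicle. PMAIP1 (ENSG00000141682, chr18:59899948-59904306, plus strand) was low in vehicle at 2.20, 2.01 and 1.88 CPM and reached 12.1, 11.4 and 10.2 CPM (log2 2.47, SE 0.140, adjusted p = 1.89e-21). MDM2 rose less than with Scutellariae Radix, to 480, 481 and 484 CPM (log2 0.54, SE 0.036, adjusted p = 1.45e-18).

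By role, 4 of 5 arrest genes rose, BTG2 being at -0.02 and not called, and all 3 death receptor genes rose, led by TNFRSF10A at 1.29. BBC3 rose by 1.79 and GADD45A by 1.68. Genes that fell were spread over the other roles. SESN1 (ENSG00000080546, chr6:108986437-109094819, minus strand), a regulator of mTORC1 and redox state, went from 44.3, 45.7 and 46.0 CPM to 23.6, 21.6 and 22.6 CPM (log2 -1.0, SE 0.052). SPATA18, which takes part in mitochondrial quality control, went from 22.4, 21.8 and 22.8 CPM to 10.9, 10.8 and 11.8 CPM (log2 -1.0, SE 0.054). Both were thus at about their 0.5-fold level, with ratios of 0.499 and 0.501 and no overlap of libraries. CMBL fell by 0.81, FDXR by 0.77, CCNG1 by 0.41, RPS27L by 0.35, BAX by 0.31, TRIAP1 by 0.21 and DDB2 by 0.18. ZMAT3, at 0.08 with an adjusted p of 0.0439, was not called in 7 of 12 alternatives, with adjusted p values up to 0.198. APAF1, PHLDA3, POLH and XPC were not called, with changes of 0.12, 0.00, -0.02 and 0.07.

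At 42 ug/mL the balance turned, with 11 genes higher and 16 lower and a median of -0.13, against 23.4% and 23.5% of all genes tested (46.9% in all). PLK3 stood at 23.6, 23.5 and 20.6 CPM (log2 1.25), PMAIP1 at 3.92, 3.71 and 4.23 CPM (0.96) and CDKN1A at 187, 176 and 170 CPM (0.90, SE 0.051, adjusted p = 1.5e-20). MDM2 was at 384, 383 and 389 CPM (0.21, adjusted p = 1.89e-06). PLK2, the strongest responder at 210 ug/mL, was at 13.6, 13.2 and 13.4 CPM and was not called (0.07, adjusted p = 0.505). SESN1 was at 28.7, 27.7 and 29.1 CPM (-0.67). At 8.4 ug/mL, 4 genes were higher, TNFRSF10A, BBC3, CDKN1A and PLK3, and 7 lower, against 8.58% and 7.39% (16.0% in all). CDKN1A was at 118, 105 and 118 CPM (0.26) and MDM2 at 361, 350 and 321 CPM, the latter not called. BTG2 at -0.36 and DDB2 at -0.33 fell the furthest. The 11 calls at 8.4 ug/mL became 7 without vehicle replicate 1.

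Several genes did not follow the dose of Coptidis Rhizoma in one direction. PPM1D was at 51.5, 49.5 and 50.2 CPM in vehicle, 42.9, 44.3 and 41.7 at 8.4 ug/mL, 38.0, 37.5 and 37.3 at 42 ug/mL and 80.9, 83.9 and 68.5 CPM at 210 ug/mL. Its log2 changes were -0.23, -0.42 and 0.63, called at each dose. AEN was lower at 42 ug/mL (-0.26) and higher at 210 ug/mL (0.39). BTG2 fell by 0.64 at 42 ug/mL and PHLDA3 by 0.48, and at 210 ug/mL both stood at the vehicle level. DDB2 fell by 0.33, 0.58 and 0.18 at 8.4, 42 and 210 ug/mL. Compared directly, 210 against 42 ug/mL gave 23 genes higher and 6 lower, against 28.6% and 27.9% of all genes. That set of higher genes included PPM1D at 1.05, BTG2 at 0.62, PHLDA3 at 0.48 and DDB2 at 0.39. The comparison of 210 with 8.4 ug/mL gave 22 higher and 7 lower, against 32.9% and 32.8%.

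**Figure D3:**
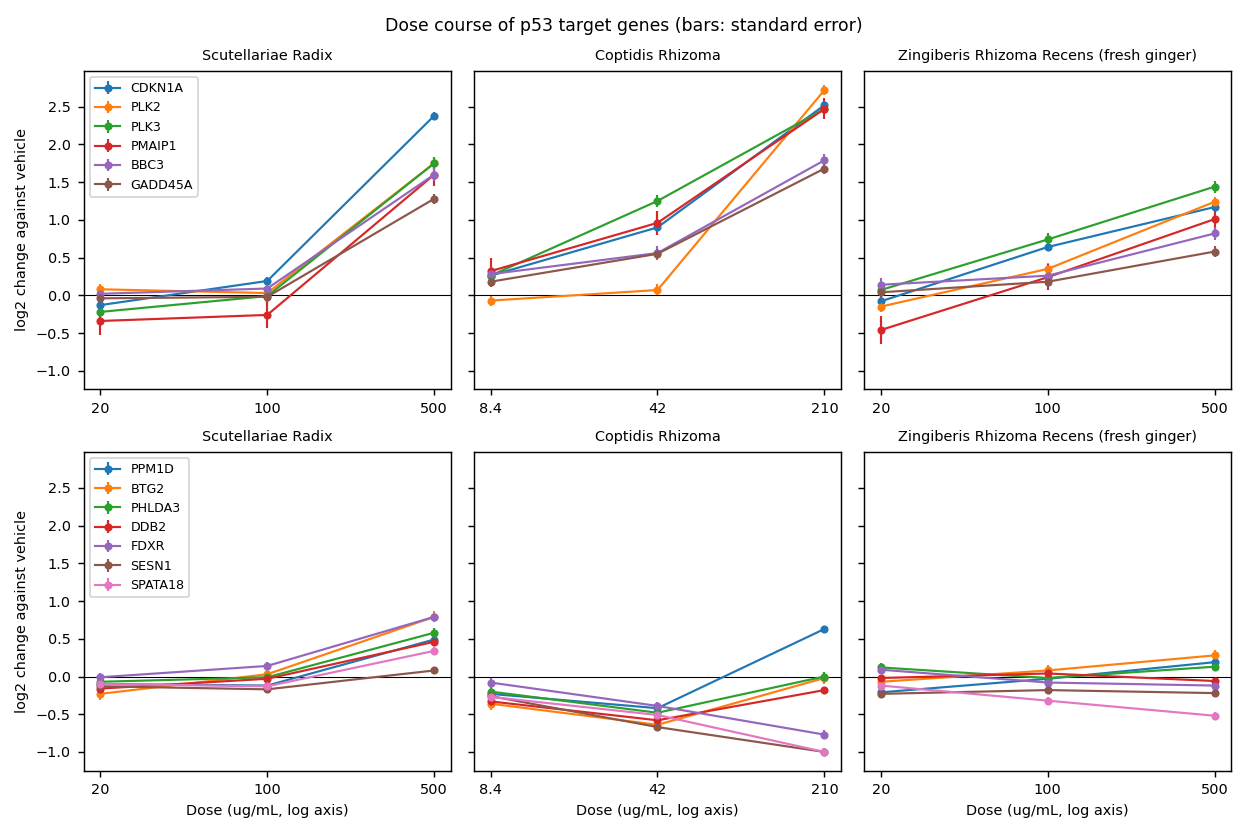
Log2 change against vehicle (vertical axis, bars for the standard error) over dose (log axis) for 6 genes that rose strongly (upper panels) and 7 that did not (lower panels), in Scutellariae Radix, Coptidis Rhizoma and fresh ginger. PLK2 stays near 0 up to the middle dose of Coptidis Rhizoma and reaches 2.72 at the top, and PPM1D runs through -0.42 to 0.63.

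The top doses of Scutellariae Radix and Coptidis Rhizoma were compared with each other, a comparison added after the values were seen. The doses differ, 500 and 210 ug/mL, and the labels do not say that they match in effect. By the rule of the series text the dose of Coptidis Rhizoma was its IC20, and Scutellariae Radix had no IC20 under 500 ug/mL. In it 16 genes were higher with Scutellariae Radix and 10 higher with Coptidis Rhizoma, against 28.7% and 30.9% of all genes tested (59.6% in all). The sharpest contrast was FDXR, at 76.6, 78.5 and 80.8 CPM in vehicle, 147, 136 and 125 CPM with Scutellariae Radix and 47.0, 46.1 and 45.3 CPM with Coptidis Rhizoma. The difference was 1.56 on the log2 scale (SE 0.057, adjusted p = 2.05e-28). CMBL stood at 46.5, 45.3 and 46.8 CPM against 18.9, 16.5 and 19.1 CPM, with 29.9, 33.4 and 32.3 CPM in vehicle (difference 1.34, SE 0.061). SPATA18 stood at 29.2, 27.7 and 27.7 CPM with Scutellariae Radix (difference 1.34, SE 0.053). In these 3 genes vehicle lay between the extracts, and all libraries of the groups were apart.

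By their calls against vehicle, which share the 3 vehicle libraries, 17 genes (54.8%) rose with both extracts, as did 20.4% of all genes tested. Of these, MDM2, FAS, TP53INP1 and ZMAT3 were higher with Scutellariae Radix (12.9% of the list and 0.613% of all genes). Another 10 were higher with Coptidis Rhizoma (32.3% and 13.7%): PPM1D, CDKN1A, GADD45A, PLK2, PLK3, TNFRSF10A, TNFRSF10B, BBC3, PMAIP1 and RRM2B. AEN, TP53I3 and TIGAR (9.68% and 6.07%) did not differ by the test, at -0.07, 0.03 and 0.10 (SE 0.035, 0.048 and 0.060). Of all 3393 genes that rose with both, 2281 were higher with Coptidis Rhizoma and 102 with Scutellariae Radix, so a majority higher with Coptidis Rhizoma was not particular to the list. The differences for CDKN1A, PPM1D and RRM2B were small, at -0.14, -0.14 and -0.13, and that of PLK2 was the largest of the 10 at -0.97. BAX, TRIAP1, SPATA18, DDB2, FDXR and CMBL rose with Scutellariae Radix and fell with Coptidis Rhizoma. These 6 make up 19.4% of the list, and genes with these opposite calls made up 1.03% of all genes tested. All 6 differed in the direct test, as did all 172 genes tested with these opposite calls. The direct test therefore adds no separate evidence here. BTG2, PHLDA3, POLH and XPC rose with Scutellariae Radix alone against vehicle (12.9% of the list and 3.32% of all genes), and the direct test called all but XPC (0.08, adjusted p = 0.149). CCNG1, SESN1 and RPS27L fell with Coptidis Rhizoma alone (9.68% and 13.4%), and the direct test called all 3, at 0.43, 1.08 and 0.36.

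**Figure D4:**
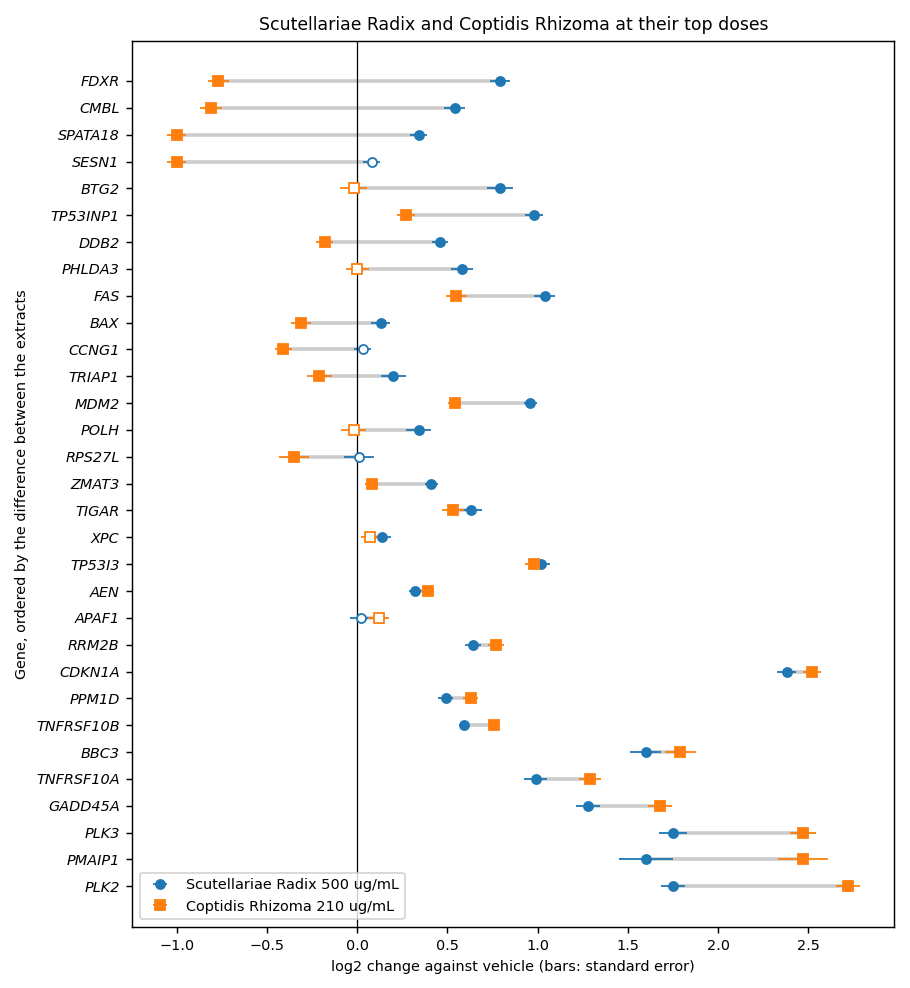
Log2 change against vehicle of each gene with Scutellariae Radix 500 ug/mL (blue circles) and Coptidis Rhizoma 210 ug/mL (orange squares), bars for the standard error and open symbols for genes not called, ordered by the difference. FDXR at the top has 0.79 and -0.77, and PLK2 at the bottom has 1.75 and 2.72.

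Fresh ginger at 500 ug/mL raised 19 genes and lowered 5, against 23.6% and 22.5% of all genes tested (46.0% in all). The strongest were again arrest genes. PLK3 stood at 23.2, 27.3 and 26.8 CPM (2.72-fold, log2 1.44, SE 0.078, adjusted p = 1.43e-21) and PLK2 at 30.7, 30.2 and 29.9 CPM (1.24, SE 0.069, adjusted p = 4.54e-21). CDKN1A stood at 221, 207 and 217 CPM (2.26-fold, 1.17, SE 0.051, adjusted p = 3.39e-25), and PMAIP1 at 4.33, 3.80 and 4.14 CPM (1.01, SE 0.157). For these 4 genes all 3 treated libraries lay above the vehicle range. MDM2 was at 474, 431 and 457 CPM (0.45, adjusted p = 3.24e-15). All 5 arrest genes and all 3 death receptor genes rose, the latter with TNFRSF10A at 0.87, TNFRSF10B at 0.50 and FAS at 0.39. BBC3, TP53INP1, APAF1, TIGAR, TP53I3, RRM2B, PPM1D, AEN and ZMAT3 rose by 0.82 to 0.11, and APAF1, at 0.33, had here its highest level of all groups. SPATA18 fell by 0.52, RPS27L by 0.28, SESN1 by 0.22, CMBL by 0.20 and CCNG1 by 0.12. BAX, PHLDA3, TRIAP1, XPC, DDB2, POLH and FDXR were not called.

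Dried ginger at 500 ug/mL raised 18 genes and lowered 8, against 21.5% and 20.9% (42.4% in all). PLK3 was at 23.9, 22.4 and 22.1 CPM (1.26), PLK2 at 28.7, 29.2 and 28.4 CPM (1.17) and CDKN1A at 221, 187 and 198 CPM (1.08, SE 0.051, adjusted p = 1.17e-23). MDM2 was at 409, 422 and 426 CPM (0.34, adjusted p = 4.98e-11). Replicate 1, which stood apart, held the highest CDKN1A value and the lowest MDM2 value of its group, and without it 23 genes were called in place of 26. XPC, TRIAP1 and FDXR fell with dried ginger, by 0.20, 0.19 and 0.22, besides the 5 genes that fell with fresh ginger.

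The middle dose of 100 ug/mL gave 8 genes higher and 3 lower with fresh ginger, against 12.1% and 10.2% (22.2% in all), and 6 higher and 2 lower with dried ginger, against 9.76% and 7.75% (17.5% in all). CDKN1A was at 160, 137 and 147 CPM with fresh and at 129, 119 and 128 CPM with dried ginger (0.64 and 0.39). MDM2 was at 412, 385 and 400 CPM and at 390, 375 and 381 CPM (0.26 and 0.20). PLK3 rose by 0.74 and 0.67, and PLK2, TNFRSF10A and TNFRSF10B also rose with both. At 20 ug/mL fresh ginger gave 0 higher and 4 lower, against 2.75% and 2.38% (5.13% in all), namely SESN1 at -0.23, PPM1D at -0.21, ZMAT3 at -0.18 and CCNG1 at -0.17. At an unadjusted p under 0.05 there was 1 higher, and DESeq2 gave 0. The 4 calls became 1 without this group's replicate 3. Dried ginger at 20 ug/mL gave 0 higher and 0 lower, against 0.024% and 0.0601% (0.0841% in all), with 2 lower at an unadjusted p under 0.05 and 0 by DESeq2. CDKN1A was at 95.1, 85.4 and 89.6 CPM with fresh and at 93.9, 88.5 and 83.8 CPM with dried ginger at this dose, and MDM2 at 320, 314 and 301 CPM and at 335, 324 and 315 CPM. Within the extracts, 500 against 20 ug/mL gave 20 higher and 5 lower for fresh ginger, against 24.4% and 23.6%, and 20 higher and 6 lower for dried ginger, against 20.9% and 20.1%.

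Fresh and dried ginger, which are the same rhizome in different states, were compared at matched doses in 3 direct tests. At 500 ug/mL 0 of 31 genes differed, against 0.961% higher and 0.871% lower of all genes, with 5 higher in fresh ginger at an unadjusted p under 0.05 and 1 by DESeq2. Of the 31 differences 27 lay above 0 at 500 ug/mL, 21 at 100 ug/mL and 13 at 20 ug/mL. Leaving out replicate 2 or 3 of dried ginger or replicate 2 of fresh ginger gave 1 call at 500 ug/mL. At 100 ug/mL CDKN1A alone differed, against 0.324% higher, by 0.24 (SE 0.051, adjusted p = 0.00909), and its call was lost without replicate 2 of dried or replicate 1 of fresh ginger. At 20 ug/mL 0 differed, against 0.0421% higher and 0.00601% lower, with 7 lower at an unadjusted p under 0.05 and 0 by DESeq2. The 95% intervals of the differences, not adjusted for the number of genes, lay between -0.22 and 0.46 over the list at 500 ug/mL, between -0.39 and 0.34 at 100 ug/mL and between -0.48 and 0.30 at 20 ug/mL. Differences of that size remained possible for single genes.

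Wortmannin blocks phosphoinositide 3-kinases and, at higher doses, related kinases that include ATM and DNA-PK, which phosphorylate p53. With it 3 genes were higher and 13 lower, against 16.2% and 16.0% of all genes tested (32.2% in all). CDKN1A was at 83.2, 85.4 and 80.4 CPM, a fall of 0.20 on the log2 scale (SE 0.053, adjusted p = 0.00245), and its lowest level of all groups. MDM2 was at 339, 348 and 330 CPM, overlapped vehicle and was not called. PMAIP1 fell to 1.31, 1.63 and 1.4 CPM (-0.49, SE 0.184, adjusted p = 0.0335), a call lost in 5 of 12 alternatives. PLK2 fell to 9.69, 9.75 and 9.70 CPM (-0.40, SE 0.078, adjusted p = 5.57e-05) and TIGAR to 21.2, 19.3 and 21 CPM (-0.38, SE 0.066, adjusted p = 8.79e-06). PLK3, AEN, TRIAP1, PPM1D, BAX, PHLDA3, CCNG1, DDB2 and TNFRSF10B fell by 0.33 to 0.09. TP53INP1, which promotes autophagy and death and is also a target of FOXO factors, went the other way, from 31.7, 30.3 and 30.4 CPM to 43.3, 42.1 and 42.8 CPM (0.47, SE 0.050, adjusted p = 8.92e-11). TP53I3 rose by 0.27 and RRM2B by 0.11, and the calls of RRM2B and DDB2 were each lost in 7 of 12 alternatives.

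Pinelliae Tuber and Zizyphi Fructus (jujube) left the list almost unmoved. Pinelliae Tuber gave 0 higher and 1 lower at 500 ug/mL, PPM1D at -0.15, against 2.64% and 1.93% of all genes (4.57% in all). It gave 0 higher and 1 lower at 100 ug/mL, ZMAT3 at -0.17, against 0.0841% and 0.12% (0.204% in all), and 0 and 0 at 20 ug/mL, against 0.00601% and 0.0%. Zizyphi Fructus gave 0 higher and 1 lower at 500 ug/mL, PPM1D at -0.17, against 2.09% and 1.53% (3.61% in all). It gave 0 and 0 at 100 ug/mL, against 0.168% and 0.126% (0.294% in all), and 0 and 1 at 20 ug/mL, SPATA18 at -0.18, against 1.23% and 0.763% (1.99% in all). Each of these single calls was lost in some alternatives. The PPM1D call at 500 ug/mL of Pinelliae Tuber was lost without replicate 3 of that group or without any 1 vehicle library, and without its replicate 2 there were 2 calls. That of ZMAT3 was lost without replicate 2 or 3 of its group or any 1 vehicle library. The PPM1D call of Zizyphi Fructus was lost without its replicate 1 or 3 or vehicle replicate 1. For Zizyphi Fructus 20 ug/mL there were 5 calls without its replicate 3 and 0 without any other library of the 6 compared. At an unadjusted p under 0.05, Zizyphi Fructus gave 1, 2 and 1 genes higher and 3, 5 and 6 lower at 500, 100 and 20 ug/mL, and DESeq2 gave 0 higher at each dose and 1, 0 and 0 lower.

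CDKN1A lay between 84.1 and 90.7 CPM in the 17 libraries of these 2 extracts, below the lowest vehicle library of 91.1 CPM, and was called in none of the 6 groups. All 17 carry the title numbers 3 and 4 and all vehicle libraries the number 1, so this common offset cannot be told apart from that number. With Pinelliae Tuber it was 90.3, 84.1 and 87.1 CPM at 500, 89.4, 88.2 and 85.1 at 100 and 89.8 and 87.2 at 20 ug/mL. With Zizyphi Fructus it was 86.0, 90.6 and 89.3 CPM at 500, 86.1, 88.5 and 89.2 at 100 and 90.3, 89.5 and 90.7 at 20 ug/mL. MDM2 lay between 301 and 330 CPM in the same libraries. At an unadjusted p under 0.05, Pinelliae Tuber gave 6, 6 and 2 genes at 500, 100 and 20 ug/mL, all lower, and DESeq2 called 2, 1 and 0. Within the extracts, 500 against 20 ug/mL gave 0 and 0 genes for Pinelliae Tuber, against 1.2% and 0.703%, with 3 at an unadjusted p under 0.05 and 0 by DESeq2. For Zizyphi Fructus it gave 1 higher, SPATA18 at 0.20, and 0 lower, against 4.39% and 2.82%, a call lost without replicate 1 of the 20 ug/mL group, which stood apart, or replicate 2 of the 500 ug/mL group. Without replicate 3 of the 20 ug/mL group, 5 genes were called in that comparison.

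Across the 20 group means the likeness of the genes to CDKN1A ran over a wide range. BBC3 had the profile most like that of CDKN1A, with a Pearson r of 0.98, then GADD45A, TNFRSF10B and PMAIP1, each at 0.97, and 10 genes were above 0.9. FAS at 0.89, PPM1D at 0.83, BTG2 at 0.52 and DDB2 at 0.20 were among those in between. SESN1 at -0.52, SPATA18 at -0.47, CCNG1 at -0.43, RPS27L at -0.42 and BAX at -0.33 were among the 8 genes below 0. These values describe 20 points in which 2 or 3 extracts at their top doses carry most of the range. All the genes were read from the same libraries and share their depth and scaling. TNFRSF10A was called higher in the most groups, 10 of 19, and never lower. Its vehicle mean of 10.8 CPM was its lowest of the 20 groups, and all 19 comparisons share those vehicle libraries. PPM1D was also called in 10 groups, higher in 4 and lower in 6. MDM2 was higher in 7 and lower in none, and CDKN1A higher in 9 and lower in 1. The widest range was that of PLK2, with a ratio of 8.68 between its highest and lowest group means, and the narrowest that of XPC, at 1.27. SESN1, CCNG1 and RPS27L were never called higher. Of the 31 genes, 9 overlap a tested gene on the other strand, among them MDM2, FAS, TNFRSF10A, TNFRSF10B, TP53I3, TP53INP1 and RPS27L, and the strand setting of the counting is not given in the sources used here. RPS27L is also a close relative of RPS27, so its counts are less certain.

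Of 22 tested genes of p53 regulators and relatives, 5 rose (22.7%) and 8 fell (36.4%) with Scutellariae Radix 500 ug/mL, against 24.7% and 25.5% of all genes, and 10 rose (45.5%) and 7 fell (31.8%) with Coptidis Rhizoma 210 ug/mL, against 34.8% and 34.5%. CDKN2A, PPP1R13L and TP73 were among the 4 with the largest called changes of their list in both groups, and MDM4 was chosen after its values were seen. CDKN2A, the locus of p16 and of the MDM2 inhibitor ARF, rose by 1.59 with Scutellariae Radix 500 ug/mL and by 1.81 with Coptidis Rhizoma 210 ug/mL. PPP1R13L, which encodes the p53 inhibitor iASPP, rose by 0.71 and 1.82 in the same groups, and TP73, a member of the p53 family, fell by 0.85 and 1.72. MDM4, the partner of MDM2, rose by 0.36 and 0.25. Gene counts do not separate the transcripts of CDKN2A.

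A second list of 25 known targets, of which 23 were tested, showed a wider spread. With Scutellariae Radix 500 ug/mL 13 rose (56.5%) and 4 fell (17.4%), against 24.7% and 25.5% of all genes (median 0.29). With Coptidis Rhizoma 210 ug/mL 9 rose (39.1%) and 10 fell (43.5%), close to the 34.8% and 34.5% of all genes (median -0.12). With fresh ginger 500 ug/mL 10 rose (43.5%) and 5 fell (21.7%), against 23.6% and 22.5% (median -0.02). Among its largest changes were those of the secreted stress factor GDF15, at 2.93, 4.11 and 2.59 in these groups, and of the cytokine gene LIF, at 2.8, 3.98 and 2.14. GLS2, the glutaminase that p53 induces, rose by 0.67 with Scutellariae Radix and fell by 1.02 with Coptidis Rhizoma. With wortmannin 4 of these rose (17.4%) and 8 fell (34.8%), against 16.2% and 16.0%, and LIF and GDF15 fell by 0.55 and 0.43.

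Genes that p53 represses through p21 and the DREAM complex, a repressor of cell cycle genes, fell in the same groups and in some others. All 16 of them were lower with Scutellariae Radix 500 ug/mL (median -0.88) and with Coptidis Rhizoma at 210 and 42 ug/mL (-1.59 and -0.72), as were 14 of 16 with each ginger at 500 ug/mL (-0.68 and -0.49). Of all genes tested, 25.5% were lower with Scutellariae Radix 500 ug/mL, 34.5% and 23.5% with these doses of Coptidis Rhizoma and 22.5% and 20.9% with the gingers. At 100 ug/mL 10 of 16 were lower with fresh and 9 with dried ginger, against 10.2% and 7.75% of all genes. In groups where CDKN1A was not called, 6 of 16 (37.5%) were lower with Pinelliae Tuber 500 ug/mL, against 1.93%, and 4 of 16 (25.0%) with Zizyphi Fructus 500 ug/mL, against 1.53%. With Scutellariae Radix 100 ug/mL, where CDKN1A rose, 3 were higher and 0 lower, against 7.28% and 7.36%. At Coptidis Rhizoma 210 ug/mL the topoisomerase TOP2A fell by 2.09 and the cyclin CCNA2 by 2.05, and with Scutellariae Radix PLK1 fell by 1.09. With wortmannin 13 fell and 1 rose (median -0.33), against 16.0% and 16.2% of all genes, and CDKN1A was lower there too, while at Coptidis Rhizoma 8.4 ug/mL 13 fell (-0.17), against 7.39%. A link of these genes with CDKN1A was not tested.

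Genes of the integrated stress response, a programme set off by amino acid shortage and misfolded proteins, were higher in these groups and in some others. All 8 rose with Scutellariae Radix 500 ug/mL (median 1.57) and with Coptidis Rhizoma at 210 and 42 ug/mL (2.25 and 1.38), 7 rose with each ginger at 500 ug/mL (0.84 with fresh and 0.68 with dried), and 0 rose and 3 fell with wortmannin. Of all genes, 24.7%, 34.8% and 23.4% were higher with the first 3 and 23.6% and 21.5% with the gingers. With wortmannin 16.2% of all genes were higher and 16.0% lower. This list did not simply follow the p53 target genes, of which 11 rose and 16 fell at Coptidis Rhizoma 42 ug/mL. At Coptidis Rhizoma 8.4 ug/mL 6 of the 8 rose (median 0.64), against 8.58% of all genes, while 4 p53 target genes rose and 7 fell. At 100 ug/mL 6 rose with fresh and 4 with dried ginger (0.55 and 0.4), against 12.1% and 9.76% of all genes. PPP1R15A (GADD34), which restores translation, rose by 3.25 with Scutellariae Radix 500 ug/mL and by 4.03 with Coptidis Rhizoma 210 ug/mL, and the transcription factor ATF3 by 3.20 and 4.18. In the direct comparison of these top doses, all 8 were higher with Coptidis Rhizoma, against 30.9% of all genes. SESN2 belongs to this list and to that of further targets, and rose by 1.85 and 2.40 while its relative SESN1 did not rise. Hepatocyte markers moved in these groups as well: 9 of 10 fell with Scutellariae Radix 500 ug/mL, against 25.5% of all genes. With Coptidis Rhizoma 210 ug/mL 8 of these markers fell and 2 rose, against 34.5% and 34.8%. The summed level of the hepatocyte markers was 44500 to 45100 CPM in vehicle libraries, 30500 to 31400 with Scutellariae Radix 500 ug/mL, 26900 to 28000 with Coptidis Rhizoma 210 ug/mL and 38800 to 39800 with fresh ginger 500 ug/mL. The 14 markers of other cell types summed to 1400 to 1410 CPM in vehicle, 1800 to 1970 with Scutellariae Radix 500 ug/mL, 1100 to 1180 with Coptidis Rhizoma 210 ug/mL and 2460 to 2700 with fresh ginger 500 ug/mL. With wortmannin 7 hepatocyte markers rose and 0 fell, against 16.2% and 16.0% of all genes. The part of these shifts in the levels of the p53 target genes was not tested.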

How the data were processed

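RNA was sequenced in 59 HepG2 libraries in 20 groups, as paired reads of 100 bases from a directional mRNA kit, per the labels' protocols. Values in the deposited table are RSEM expected counts by gene. The submitters' processing notes name STAR 2.7.3a, RSEM 1.3.3, Trim Galore 0.6.5 and FastQC 0.11.9 with GRCh38 (hg38), and neither annotation nor strand setting is given in the sources used here. Of 267 columns, 59 belonged to these samples and 208 were not used. Of nonzero values 24.44% were not whole, and all were rounded. Symbols matched 56558 identifiers, and coordinates came from GENCODE 29.

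Counts were tested with edgeR 4.0.16 in R 4.3.3 (filterByExpr, TMM scaling, 1 quasi-likelihood model of 20 group means, two-sided, Benjamini-Hochberg over 16641 genes at 0.05), checked on simulated data. The simulation changed a small share of the genes, evenly up and down, in a single group. It therefore does not cover comparisons with as many called genes as the top doses gave. The biological coefficient of variation was 4.41% with 39 residual degrees of freedom. CPM values use the TMM library sizes. DESeq2 1.42.0, RLE scaling, no filter, fits of the compared groups alone, a replicate block and leaving out libraries were alternatives. The mean chi-square per gene between replicates was 1.93 to 32.35, so no pair agreed within sampling noise. The 31 genes and all other lists were chosen with earlier results of these data known. Values in each library were printed for CDKN1A and MDM2 in each group and for up to 4 called genes with the largest change in a comparison, and other genes shown by library were chosen after their values were seen. Of the further targets, SCO2 was not matched and TP53AIP1 did not pass the filter. Some genes of these lists are not reported here.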

Additional observations from a re-analysis of the deposited data

Results flagged for a closer look

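Genes were flagged for opposite calls against vehicle at the top doses, in either direction, together with a called difference in the direct edgeR test. Scutellariae Radix 500 ug/mL was higher and Coptidis Rhizoma 210 ug/mL lower for 6 of the 31 genes (19.4%), against 172 of the 16641 genes tested (1.03%). The reverse calls were found for 0 of the 31 genes and for 274 of the genes tested (1.65%). Every gene tested with opposite calls also had a called direct difference, so the direct test added no further selection. Scutellariae Radix and Coptidis Rhizoma also differ in a title number whose meaning is not stated. The differences, Scutellariae Radix minus Coptidis Rhizoma on the log2 scale, were 1.56 for FDXR (adjusted p = 2.05e-28), 1.34 for SPATA18 (adjusted p = 3.96e-27), 1.34 for CMBL (adjusted p = 1.29e-24), 0.64 for DDB2 (adjusted p = 1.75e-17), 0.44 for BAX (adjusted p = 1.65e-09) and 0.42 for TRIAP1 (adjusted p = 1.02e-06). The doses of the extracts differ. Both changes against vehicle use the same 3 vehicle libraries, while the direct differences use none. The rise of BAX against vehicle was not called in 5 of 12 alternatives.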

How the results depend on the processing

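Of 391 called changes of single genes over all comparisons, RLE scaling lost 3, DESeq2 8, no filter 28, fits of the compared groups alone 16, the replicate block 0 and leaving out the 3 libraries that stood apart 7, and none turned its direction. Calls gained were 4, 5, 14, 27, 8 and 21 in the same order. Over all checks that left out 1 replicate, a call was kept 2154 times, lost 192 times and gained 33 times. Counts of called genes moved by more than 1.5 times in small comparisons only. For Pinelliae Tuber 500 ug/mL, 1 became 2 with RLE scaling, DESeq2, the replicate block and without the 3 libraries, and 0 with no filter and with the compared groups alone. For Pinelliae Tuber 100 ug/mL, 1 became 0 with no filter, the compared groups alone and without the 3 libraries. For Zizyphi Fructus 500 and 100 ug/mL, 1 and 0 became 2 and 2 with the compared groups alone, and 0 became 1 at 100 ug/mL without the 3 libraries. For Zizyphi Fructus 20 ug/mL 1 became 0 with DESeq2, the compared groups alone and without the 3 libraries, and for 500 against 20 ug/mL 1 became 2, 0 and 0. Scutellariae Radix 20 ug/mL went from 3 to 5 without the 3 libraries, and fresh against dried ginger at 500 ug/mL from 0 to 1 with DESeq2. The replicate block gave 2 in place of 1 for fresh against dried ginger at 100 ug/mL and, besides Pinelliae Tuber 500 ug/mL, moved no other count that far. Replicate numbers did not pair the samples: correlations of same-numbered deviations lay between -0.0625 and 0.0769.

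Leaving out 1 library gave 1 to 5 calls for fresh ginger 20 ug/mL (4 with all), 0 to 2 for Pinelliae Tuber 500 ug/mL (1), 0 to 1 for Pinelliae Tuber 100 ug/mL (1), 4 to 9 for Scutellariae Radix 100 ug/mL (10), 1 to 4 for Scutellariae Radix 20 ug/mL (3), 7 to 9 for Coptidis Rhizoma 8.4 ug/mL (11), 0 to 1 for Zizyphi Fructus 500 ug/mL (1), 0 to 5 for Zizyphi Fructus 20 ug/mL (1) and for its 500 against 20 ug/mL (1), and 0 to 1 for fresh against dried ginger at 500 ug/mL (0) and 100 ug/mL (1). The cause of these moves was not tested. Groups of 3 and of 2 libraries limit calls of small changes.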
